A study of Homo sapiens with 4 samples.

Results

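The SLC25 genes encode mitochondrial carriers, and open chromatin around 47 of them was examined in A375, a human melanoma line long kept in culture. The members were all protein-coding genes of RefSeq (GRCh38.p14) with a symbol beginning SLC25A, except SLC25A20, out of 20033 protein-coding genes on the nuclear chromosomes. Their regions were those of the authors' deposited table that overlapped a member's span extended by 10 kb on both sides, 187 of the 125986 listed. Per the labels, the cells were treated for 48 h with octanoate at 1 mM (a fatty acid of medium chain length) or with isopropanol, its vehicle, and each group has 2 of the 4 libraries. Cells of both groups came from the 1 line and were kept in medium with serum. ATAC-seq measures open chromatin by letting the transposase Tn5 insert adapters where DNA is accessible.

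SLC25 proteins sit, with few exceptions, in the inner mitochondrial membrane, where they exchange nucleotides, phosphate, carboxylates, amino acids, cofactors and metal ions between the cytosol and the matrix. They link the respiratory chain and the citric acid cycle to the rest of the cell, and fatty acid oxidation in the matrix depends on them for coenzyme A, ADP and phosphate. Medium-chain fatty acids can enter mitochondria without the carnitine shuttle that long-chain fatty acids use.

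The deposited table gives, for each region, a normalized read count averaged over the 4 libraries, called mean reads below, and the log2 fold change of octanoate over vehicle with its standard error and p from DESeq2. Single libraries have no column in it, so neither the spread within a group nor overlap between groups could be shown. Levels given below for vehicle and octanoate are therefore not measured group means: they are the pair of values that has the deposited mean and the deposited fold change. Depth per library is not known here beyond the labels' average of 40 to 50 M paired-end reads. The labels do not say that the libraries came from separate cultures, so p-values measure the spread between these libraries, which may be technical. Of the melanocyte genes, MITF, SOX10, PMEL and DCT had a listed region within 1 kb of a start, and MLANA, TYR and TYRP1 had none. None was listed at the starts of the epithelial genes EPCAM and CDH1, the endothelial genes PECAM1 and CDH5, the haematopoietic gene PTPRC or the hepatocyte gene ALB, while CD3E and APOA1 had one.

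Regions within 1 kb of a start were the main sites of open chromatin at the carriers, and the bases just upstream of 7 starts are shown for that reason. SLC25A42 had the smallest p of all tested member regions. SLC25A38 and SLC25A36 hold the word TCACGTGA, called the M-box here. Binding of MITF or any other factor to this word was not measured. SLC25A28 and SLC25A40 had the strongest signal per kb of their start regions. SLC25A3 and SLC25A5 carry phosphate and ADP for ATP synthesis. Each stretch is the 250 bases before the RefSeq start (GRCh38.p14), 5′ to 3′ on the gene's strand, and each lies whole within a tested region. Capitals mark matches on either strand to the searched words. These were the CCAAT box, which reads ATTGG from the other strand, the SP1 word GGGCGG, which reads CCGCCC from the other strand, CCGGAAG (ETS), TGACGTCA (the cyclic AMP response element, CRE), CACGTG (E-box), TCACGTGA (M-box, which contains the E-box) and the NRF1 consensus with 1 open position. Searched for but absent from these 7 stretches were TGANTCA (AP-1), TNAAGGTCA (ERR), the exact NRF1 consensus, the YY1 consensus and a pair of PPAR half-sites.
SLC25A42: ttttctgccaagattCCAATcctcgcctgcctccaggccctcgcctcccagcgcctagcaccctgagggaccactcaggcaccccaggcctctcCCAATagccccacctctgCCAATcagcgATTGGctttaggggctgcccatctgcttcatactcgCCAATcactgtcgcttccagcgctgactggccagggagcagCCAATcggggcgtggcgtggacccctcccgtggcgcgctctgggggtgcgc
SLC25A38: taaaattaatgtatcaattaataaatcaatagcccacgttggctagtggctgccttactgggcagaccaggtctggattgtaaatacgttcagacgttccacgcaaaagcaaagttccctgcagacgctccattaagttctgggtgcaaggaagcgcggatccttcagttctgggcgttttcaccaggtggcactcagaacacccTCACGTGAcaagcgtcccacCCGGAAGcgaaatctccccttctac
SLC25A36: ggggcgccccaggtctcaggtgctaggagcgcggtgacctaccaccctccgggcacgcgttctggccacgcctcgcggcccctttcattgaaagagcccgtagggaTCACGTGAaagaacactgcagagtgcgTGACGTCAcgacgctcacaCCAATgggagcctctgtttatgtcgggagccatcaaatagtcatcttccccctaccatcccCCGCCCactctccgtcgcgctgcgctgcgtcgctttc
SLC25A28: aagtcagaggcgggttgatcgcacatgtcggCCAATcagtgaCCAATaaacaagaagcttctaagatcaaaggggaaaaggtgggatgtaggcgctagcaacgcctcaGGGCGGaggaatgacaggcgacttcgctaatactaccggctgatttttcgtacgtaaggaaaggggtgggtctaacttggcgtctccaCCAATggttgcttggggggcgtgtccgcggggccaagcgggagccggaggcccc
SLC25A40: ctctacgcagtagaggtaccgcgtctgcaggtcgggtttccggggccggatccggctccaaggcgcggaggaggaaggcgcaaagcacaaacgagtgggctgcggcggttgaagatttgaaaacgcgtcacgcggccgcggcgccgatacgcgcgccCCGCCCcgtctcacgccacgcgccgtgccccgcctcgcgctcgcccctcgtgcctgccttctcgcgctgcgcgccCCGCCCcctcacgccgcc
SLC25A3: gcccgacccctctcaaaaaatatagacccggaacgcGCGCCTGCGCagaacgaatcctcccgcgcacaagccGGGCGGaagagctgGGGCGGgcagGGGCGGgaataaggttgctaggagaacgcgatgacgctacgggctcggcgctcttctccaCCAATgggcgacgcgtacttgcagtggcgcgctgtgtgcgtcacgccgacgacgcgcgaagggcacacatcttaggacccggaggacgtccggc
SLC25A5: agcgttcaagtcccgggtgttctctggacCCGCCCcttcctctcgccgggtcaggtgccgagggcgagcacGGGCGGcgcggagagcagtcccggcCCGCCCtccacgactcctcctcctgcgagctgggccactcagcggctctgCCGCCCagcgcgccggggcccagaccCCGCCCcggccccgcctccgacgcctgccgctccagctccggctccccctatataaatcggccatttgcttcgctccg
They lie at chr19:19063744-19063993 (plus strand) for SLC25A42, chr3:39383120-39383369 (plus strand) for SLC25A38, chr3:140941586-140941835 (plus strand) for SLC25A36, chr10:99620440-99620689 (minus strand) for SLC25A28, chr7:87876361-87876610 (minus strand) for SLC25A40, chr12:98593436-98593685 (plus strand) for SLC25A3 and chrX:119468194-119468443 (plus strand) for SLC25A5.

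The upstream sequences differed in kind. The SLC25A42 window, which reaches from 250 bases before to 50 bases after the start, held 6 CCAAT words, 5 of them on the gene's strand. Of 15841 protein-coding promoter windows of this length, 1 per gene, 18 (0.114%) held as many, and the next member, SLC25A28, held 3. This count was made for SLC25A42 because of its p, with its values known. SLC25A40, SLC25A3 and SLC25A5 held the most CpG pairs of the 7 stretches, with 42, 34 and 30 in the 250 bases, where the members' windows, 50 bases longer, had a median of 28. Of the searched words, SLC25A40 and SLC25A5 held only that of SP1. SLC25A38 held 12 CpG pairs and a GC content of 49.6%, with the M-box word at base -45 and the ETS word at base -25 from the start.

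Entries in the promoter table were found for 39 of the 47 members, and 8 had none. The SP1 word was in 28 of the 39 windows (71.8%, against 58.3% of all 15841), the CCAAT box in 18 (46.2% against 36.4%), the ETS word in 8 (20.5% against 14.1%) and the E-box in 7 (17.9% against 8.83%). The M-box was in the windows of SLC25A36, SLC25A38 and SLC25A51 (7.69% against 1.40%), and the CRE in those of SLC25A33 and SLC25A36 (5.13% against 2.56%). The NRF1 consensus with 1 open position was in 5 windows, those of SLC25A3, SLC25A11, SLC25A31, SLC25A51 and SLC25A52 (12.8% against 8.58%). The AP-1 word was in the SLC25A48 window (2.56% against 5.70%). None of the 39 held the exact NRF1 consensus (1.77% of all windows), the YY1 consensus (1.33%), the ERR word (0.663%) or the PPAR pair (0.0189%). Members' windows had a median GC content of 66.7%, and all windows 62.7%. A match is a run of letters only, and these shares were not tested.

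**Figure D1:**
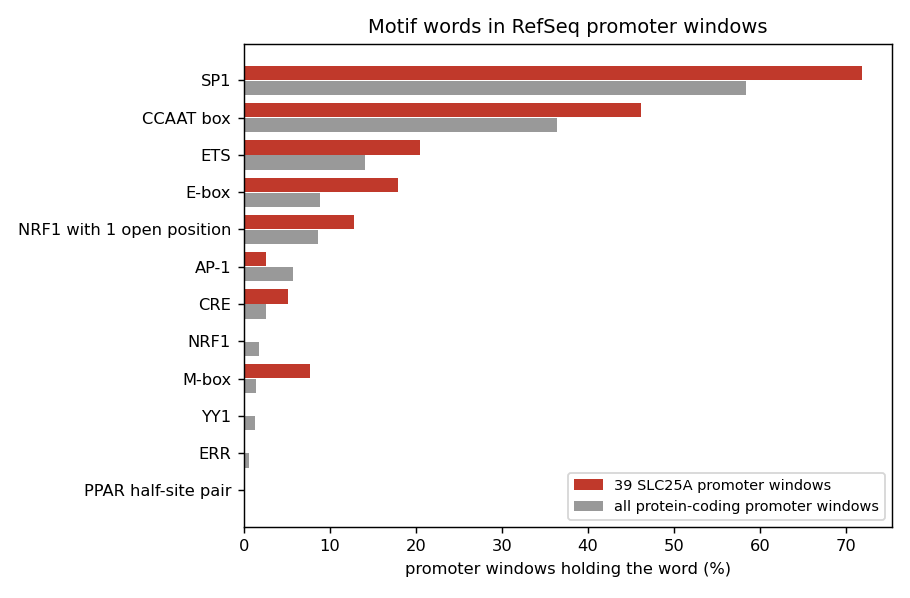
Share of promoter windows (x axis, %) that hold each motif word (y axis) in 39 SLC25A genes (red) and in all 15841 protein-coding genes with a window (grey). The SP1 word was the commonest in both, in 71.8% and 58.3% of windows, and the M-box was in 7.69% and 1.40%.

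Most carriers had open chromatin at a start. A listed region lay within 1 kb of a start of 40 of the 47 members (85.1%), against 14756 of 20033 protein-coding genes (73.7%). For 27 members (57.4%) a region there was among the 11185 that the authors' adjustment covered, called tested below, against 37.8% of all genes. The 46 member regions at starts had a median of 59.9 mean reads per kb, and all 15141 regions at protein-coding starts 47.4. Neither difference was tested.

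On the scale of mean reads per kb, the highest start levels belonged to SLC25A40, a glutathione carrier, at 155, and to the iron carrier SLC25A28 (mitoferrin 2) at 146. They were followed by the aspartate/glutamate carrier SLC25A13 (citrin) at 129, the S-adenosylmethionine carrier SLC25A26 at 125, the glycine carrier SLC25A38 at 121 and the coenzyme A carrier SLC25A42 at 119 mean reads per kb. The lowest strongest-start levels were those of the peroxisomal cofactor carrier SLC25A17, the uncoupling-protein-like SLC25A30 and the glutamate carrier SLC25A22, at 24.7, 25.2 and 25.9 mean reads per kb. SLC25A30 had a stronger region, of 84.1 mean reads, inside the gene, and the strand and starts of that gene were not used here. With no value per library, it is not known which neighbours in this order differ beyond their spread.

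**Figure D2:**
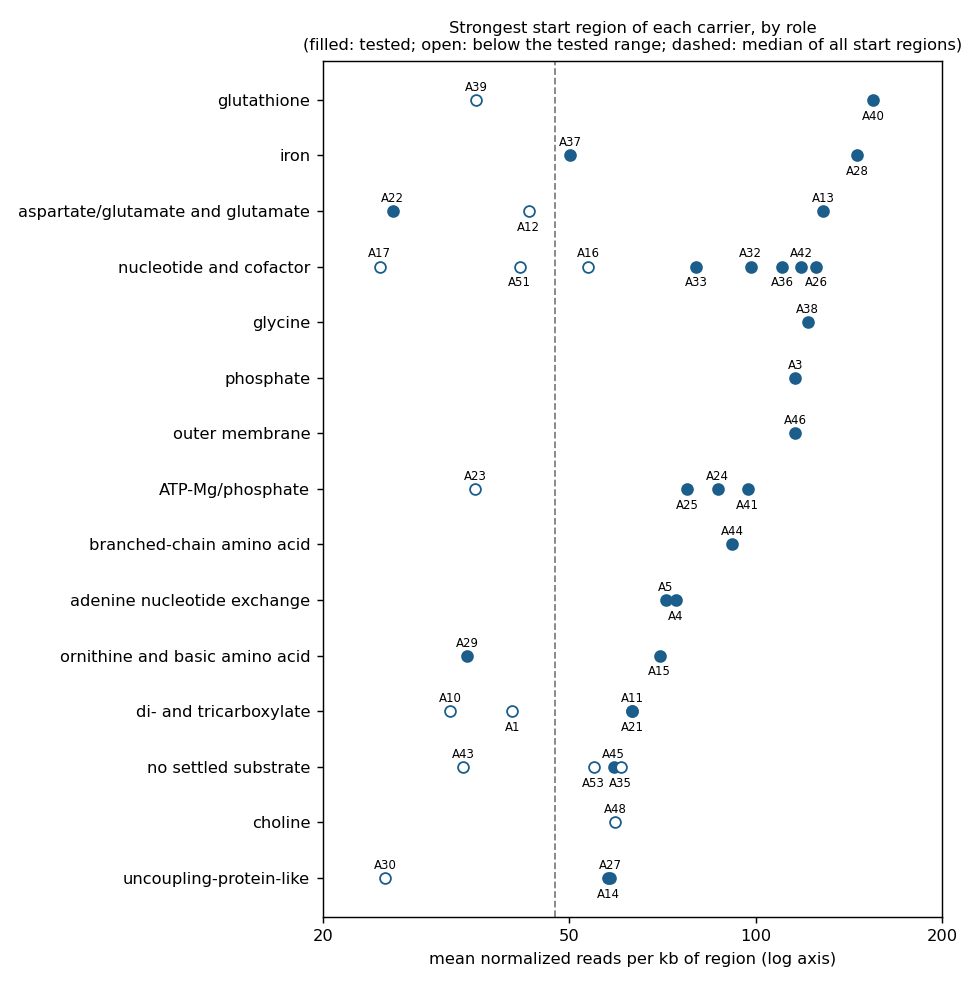
Mean normalized reads per kb (x axis, log scale) of the strongest start region of 39 of the 40 SLC25A genes with one, on lines by what they carry; filled points are tested regions, open points have fewer reads, and the dashed line is the median of all regions at protein-coding starts, 47.4. SLC25A40 at 155 and SLC25A28 at 146 are the highest, and the point of SLC25A41 is a region that also lies at the start of KHSRP.

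Levels of carriers with the same role are given side by side, with no test. Of the ADP/ATP carriers, SLC25A4 (the heart and muscle form) and SLC25A5 had tested start regions of 74.3 and 71.6 mean reads per kb, while SLC25A31, the testis form, had no region at its start. Of the aspartate/glutamate carriers, the start of SLC25A13 had 129 mean reads per kb and that of SLC25A12 (aralar) was below the median of 47.4. Of the glutathione carriers, SLC25A40 had 155 and SLC25A39 35.4. Of the iron carriers, SLC25A28 had 146 and SLC25A37 (mitoferrin 1) 50.2 mean reads per kb, the latter at a gene end whose strand was not used here.

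Members with no region at a start were SLC25A2, SLC25A6, SLC25A18, SLC25A31, SLC25A34, SLC25A47 and SLC25A52. SLC25A2, SLC25A6, SLC25A47 and SLC25A52 had no region within 10 kb at all. For the ornithine carrier SLC25A2, the SLC25A47 gene and the NAD carrier SLC25A52, the nearest listed region was 16.1, 15.6 and 35.2 kb away. For SLC25A6, an ADP/ATP carrier gene at the tip of the X chromosome in the stretch that X shares with Y, this says nothing about accessibility: the table listed 0 regions in the first 2.80 Mb of X, which hold 16 protein-coding genes, and 4027 regions on the rest of X.

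No carrier region passed the test of a change with octanoate. Of the 187 member regions, 37, at 30 genes, were tested, and the deposited DESeq2 p, adjusted by Benjamini-Hochberg, was under 0.05 in 0 of them, against 1.02% of all tested regions. At an unadjusted p under 0.05 there was 1 higher and 0 lower among the 37, against 14.8% and 0.107% of all tested regions. Of the 37, 28 lay at carrier starts, and of all tested regions at protein-coding starts 8.99% were higher. The 37 had a median of 0.16 for the log2 ratio of octanoate to vehicle in the authors' deposited table, and 31 were above 0. All tested nuclear regions had a median of 0.19, with 85.7% above 0. Set against that median, 14 of the 28 tested regions at carrier starts lay above it and 14 below, so a carrier's value above 0 and under 0.19 changes its sign with the centring.

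The intervals were narrow, but they rest on the spread between these libraries, which may be technical. They do not bound a change across separate cultures. The 95% interval was taken from the deposited standard error and not adjusted for the number of regions. For all 37 tested member regions it lay between a halving and a doubling. The same held for 10623 of all 11184 tested nuclear regions and for 6664 of the 6720 tested at protein-coding starts. The lowest bound of the 37 was -0.61 and the highest 0.99 on the log2 scale. A region at a carrier start with the median standard error of 0.20 would have needed a log2 fold change of 0.70, a ratio of 1.62, to reach an adjusted p under 0.05. Over the standard errors of the tested carrier starts, this limit ran from 0.46 to 0.91. An estimate under a region's own limit was not called at this depth with 2 libraries in each group.

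At the starts, 28 regions of 27 members were tested. None had an adjusted p under 0.05, against 0.312% of all tested regions at protein-coding starts, and 1 was higher at an unadjusted p under 0.05, against 8.99%. Their fold changes as deposited by the authors had a median of 0.19 (log2), and those of all 6720 tested regions at protein-coding starts 0.16. The 28 fold changes had a standard deviation of 0.14, less than the 0.20 that is the median standard error of 1 of them, so neighbours in the order of the carriers by fold change do not differ beyond their error. The 9 of these regions that also lay within 1 kb of another gene's start or end had a median of 0.084, and the other 19 had 0.24. This difference was not tested.

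**Figure D3:**
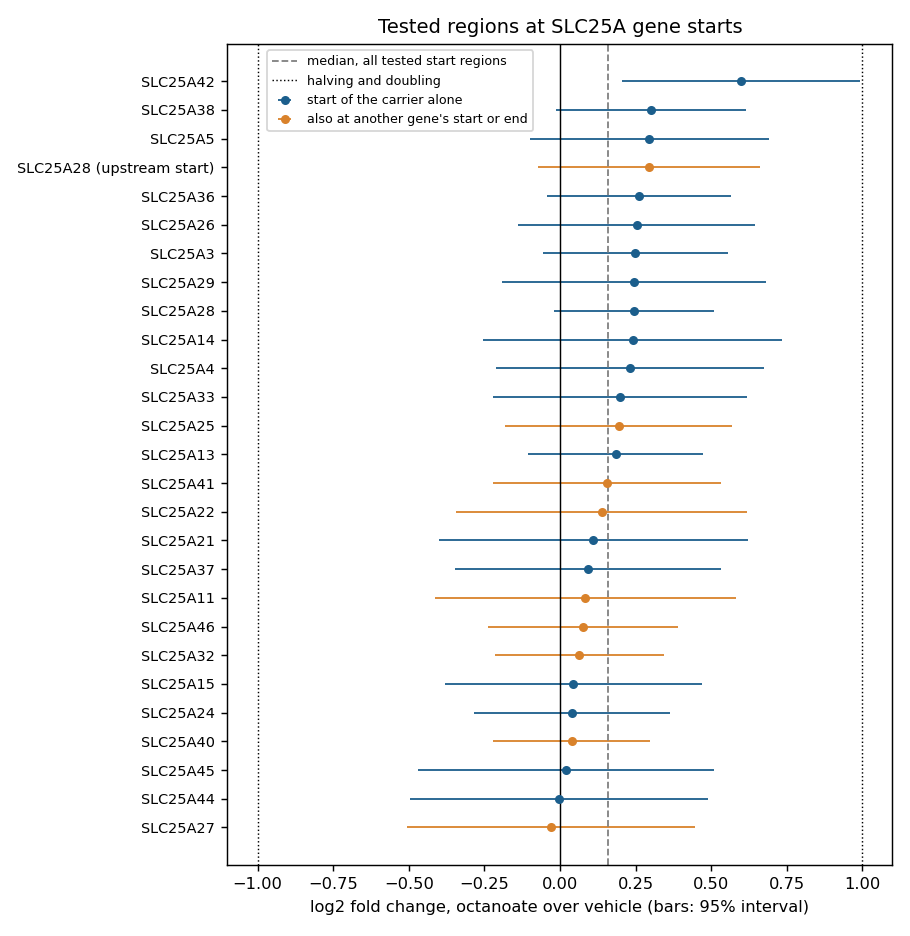
Log2 fold change of octanoate over vehicle (x axis) with its 95% interval for 27 of the 28 tested regions at SLC25A starts, blue where the region lies at the carrier alone and orange where another gene starts or ends within 1 kb, with a dashed line at 0.16, the median of all tested regions at protein-coding starts. SLC25A42 is the only one whose interval lies above 0. All 27 intervals shown lie between the dotted lines that mark a halving and a doubling. The same held for 6664 of the 6720 tested regions at protein-coding starts. Of the values shown, 14 are below the median of all tested regions, 0.19.

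The highest fold change among tested starts belonged to a cofactor carrier. The start region of SLC25A42, which brings coenzyme A into the matrix (chromosome 19, 19063338 to 19064272), had 111 mean reads, or 88.2 for vehicle and 134 for octanoate. The authors' deposited table gives a log2 fold change of 0.60 (standard error 0.20, 95% interval 0.21 to 0.99, unadjusted p 0.00282). Its adjusted p by DESeq2 was 0.0969, where 2.98% of all tested regions were under 0.1. Relative to the median of tested regions the log2 fold change was 0.41, with an unadjusted p of 0.0399 and an adjusted p of 1.00. Its other region, 41.7 kb into the gene, had 21.2 mean reads and 0.35 for the log2 fold change, with a standard error of 0.47. The start region did not pass the test, and the other was not tested. The folate carrier SLC25A32, at 225 mean reads, had a log2 fold change of 0.064, and its 95% interval ended at 0.34. The pyrimidine nucleotide carriers SLC25A36 and SLC25A33 had 0.26 and 0.20, and SLC25A26 had 0.25 at its tested start and 0.66 at a weak, untested start region of 6.07 mean reads (standard error 0.88).

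Phosphate and adenine nucleotides reach ATP synthase through the next carriers. The start region of SLC25A3, which brings in phosphate, had 191 mean reads (174 for vehicle and 207 for octanoate) and a log2 fold change of 0.25 (standard error 0.16). Those of the ADP/ATP carriers SLC25A5 and SLC25A4 had 0.30 (standard error 0.20) and 0.23 (standard error 0.23). None of these 3 differed from 0 at an unadjusted p under 0.05 in the authors' deposited table. Among the ATP-Mg/phosphate carriers, which adjust the nucleotide content of the matrix, SLC25A24 had 172 mean reads and a log2 fold change of 0.039, with an interval that ended at 0.36. SLC25A25 had 0.19 at its upstream start, which it shares with NAIF1, and a start further downstream had 34.2 mean reads and 0.16. The uncoupling-protein-like SLC25A14 and SLC25A27 had 0.24 and -0.031, the latter the lowest tested start and shared with CYP39A1.

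Among amino acid carriers, SLC25A38, which carries glycine for haem synthesis, had 189 mean reads, 170 for vehicle and 209 for octanoate, and a log2 fold change of 0.30 (standard error 0.16, unadjusted p 0.0600). SLC25A13 had 0.18 at 208 mean reads, the ornithine carrier SLC25A15 0.044, SLC25A29, which carries basic amino acids, 0.25, and the branched-chain amino acid carrier SLC25A44 -0.0032. The start of SLC25A12 had too few reads to be tested, and its log2 fold change was 0.55 with a standard error of 0.35. Of the carboxylate carriers, the oxoglutarate carrier SLC25A11 and the oxodicarboxylate carrier SLC25A21 had 0.084 and 0.11. The citrate carrier SLC25A1, which exports citrate for fatty acid synthesis, and the dicarboxylate carrier SLC25A10 fell below the tested range at 63.2 and 57.7 mean reads, where the lowest tested mean was 63.8; they had 0.25 and 0.010.

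The most open starts, those of SLC25A40 and SLC25A28, had the smallest standard errors of the tested carrier starts. SLC25A40 had 267 mean reads, 263 for vehicle and 270 for octanoate, and a log2 fold change of 0.039 with a 95% interval of -0.22 to 0.30; it shares this region with the start of DBF4. SLC25A28 had 302 mean reads, 276 for vehicle and 328 for octanoate, with 0.25 (standard error 0.14, unadjusted p 0.0706). The upstream start of SLC25A28, at ENTPD7, had 125 mean reads and 0.30. SLC25A46, an outer-membrane protein of mitochondrial shape, had 0.077 at 182 mean reads.

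The remaining 141 member regions lay away from carrier starts and were mostly weak, with a median of 10.7 mean reads. The authors' deposited table gives them a median of 0.20 (log2 fold change), against 0.25 for the 110844 regions away from protein-coding starts. Some of the 141 lay at another gene's start, and the 126 that did not had a median of 0.21. The carriers' median was 0.35, above the 0.25, with no extension of the gene span, and 0.084, below it, with 1 region per gene. Only 9 were tested; 0 of them had an adjusted p under 0.05 and 0 an unadjusted p under 0.05, against 2.08% and, higher, 23.6% of tested regions away from protein-coding starts. Of these 9, 7 lay at the start of another gene, for which the shares at protein-coding starts, 0.312% and 8.99%, are the matching ones: RPSA near SLC25A38 (log2 fold change 0.084), PMF1 at the end of SLC25A44 (0.16), HSPA4L near SLC25A31 (0.17), TMEM201 near SLC25A33 (-0.060), ENO3 and PFN1 near SLC25A11 (-0.059), and ZCCHC18 (-0.12) and FAM199X (0.23) at SLC25A53. The other pair lay inside SLC25A37 and SLC25A30, with log2 fold changes of -0.070 and 0.084.

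Over all 187 regions, tested or not, 4 had an unadjusted p under 0.05, all higher, against 3.58% higher and 0.179% lower of all nuclear regions. Beside SLC25A42 these were untested regions inside genes. One in SLC25A21, 434 kb from its start, had 20.8 mean reads, or 12.3 for vehicle and 29.3 for octanoate, and 1.26 for the log2 fold change (standard error 0.49). One in the glutamate carrier SLC25A18 had 42.1 mean reads and 0.78 (standard error 0.32), and one in SLC25A29 had 39.4 mean reads and 0.69 (standard error 0.33). The authors' adjustment did not cover these 3, and over all nuclear regions the lowest adjusted p of any of the 4 was 0.613 (Benjamini-Hochberg).

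**Figure D4:**
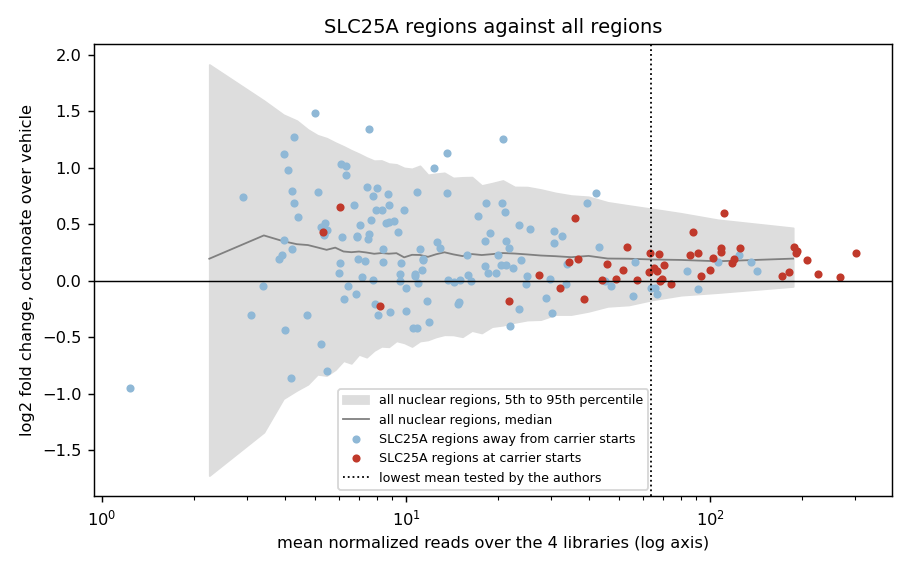
Log2 fold change (y axis) against mean normalized reads (x axis, log scale) for 46 SLC25A regions at starts (red) and 141 others (light blue), over the 5th to 95th percentile of all nuclear regions (grey band) with their median (grey line). Member regions spread most at low reads, as the band does, and to the right of the dotted line, at 63.8 reads, SLC25A42 is the highest of the member regions, at 0.60.

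SLC25A21 and SLC25A48 held the most regions, 27 and 20, followed by SLC25A26 with 11 and SLC25A13 with 8, while SLC25A28, SLC25A33, SLC25A37 and SLC25A53 had 6 each. SLC25A21 spans 495 kb, and its 26 regions away from the start had a median of 7.55 mean reads; 16 were above 0, and the median log2 fold change was 0.20. SLC25A48, which transports choline, had 18 of 20 regions above 0 and a median of 0.33, and none had an unadjusted p under 0.05. Its upstream start, shared with CXCL14, had 53.2 mean reads and 0.30 for the log2 fold change (standard error 0.29), and its downstream start 45.8 and 0.15. Of all nuclear regions 72.1% were above 0, with a median of 0.23, and of those away from protein-coding starts 71.7%, with a median of 0.25. Regions of 1 gene share its neighbourhood and are not replicates, so these counts describe single loci.

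**Figure D5:**
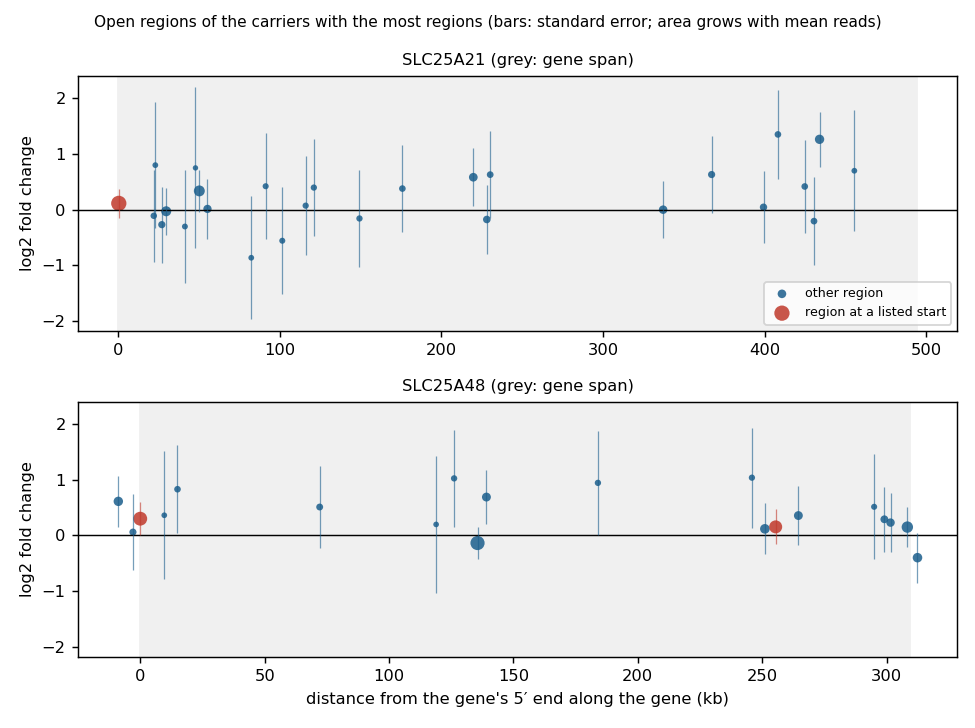
Log2 fold change (y axis, bars are 1 standard error) of the regions of SLC25A21 and SLC25A48 by distance from the gene's 5′ end (x axis, kb), with point area growing with mean reads, red for regions at a listed start and grey for the gene span. In SLC25A48, 18 of 20 regions are above 0, in SLC25A21 17 of 27, and bars of most weak regions cross 0.

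Among other genes of mitochondrial transport, too, no region passed the test. The list held 33 genes, among them the uncoupling proteins, the pyruvate carrier subunits MPC1 and MPC2, the VDAC pores, the sideroflexins, the calcium uniporter and the TIM and TOM proteins that import SLC25 carriers. Of their 104 regions, 30 were tested, and 0 had an adjusted p under 0.05, against 1.02% of all tested regions. At an unadjusted p under 0.05, 3 were higher, against 14.8%. Of the 30, 22 lay at starts of the listed genes, for which the shares at protein-coding starts, 0.312% and 8.99%, are the matching ones. The median log2 fold change of the 30 was 0.16. The start of MPC1, needed for pyruvate entry, had the smallest p of the list, at 199 mean reads and 0.46 for the log2 fold change (standard error 0.15); its adjusted p was 0.0932 by DESeq2, where 2.98% of all tested regions were under 0.1. The other two were regions of SFXN1, a serine transporter, with 0.45 at its start and 0.55 away from it. The 22 tested start regions of the list ran from -0.077 to 0.46, and those of the carriers from -0.031 to 0.60.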

How the data were processed

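ATAC-seq was compared between A375 cells given octanoate and cells given vehicle, 2 libraries each, grouped by sample titles. Per the submitters' processing notes, which name tools without roles, the authors used Trim Galore, cutadapt, FastQC, Bowtie2, Picard, MACS2, featureCounts, DESeq2 and bedtools 2.29.1 with build hg38. Parameters, peak merging, the scaling and any Tn5 shift are not given in the sources used here. Per the labels' protocols, libraries had 12 cycles of PCR.

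Per the file headers, the deposited signal is the mean normalized count, and the deposited log2 fold change comes with its standard error, a Wald score and p-values. The score equalled the fold change over its standard error. The deposited adjusted p-value equalled a Benjamini-Hochberg adjustment of the 11185 regions whose mean was 63.8 or more, and is listed as 1 in the other 114801, which were treated as not tested. No new test between groups was run, since single libraries have no values.

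Coordinates count from 1. A start was any start in the RefSeq promoter table or the gene's 5′ end; for the 8 members absent from that table, either gene end. This use of listed starts was added to the plan. Centred p-values were recomputed with the normal distribution (Python 3.11.15, scipy 1.17.1) and the code was tested on simulated data. Named were regions with an unadjusted p under 0.05, the 5 highest and 5 lowest tested starts by fold change, the 5 strongest, the 5 members with the most regions, members with none, and 1 to 3 members per role with the strongest starts; other regions named were chosen after their values were seen. Members and lists were chosen with earlier results of these data known. Promoter windows on opposite strands that overlapped gave the same sequence in 716 of 716 pairs. Counts cover all members, but 1 carrier and 1 marker gene are not reported here by name or in the plots by gene.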

Additional observations from a re-analysis of the deposited data

How the results depend on the processing

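The count of member regions past the threshold was 0 as deposited, with adjustment over all nuclear regions, after centring on the median of tested regions and with no extension of the gene span. It was 1 of 37 tested at an adjusted p under 0.1 (SLC25A42), against 2.98% of all tested regions. Within 50 kb it was 1 of 55 tested, against 1.02%. For the other mitochondrial transport genes it was 0 in the settings that gave the carriers 0, and 0 within 50 kb. At an adjusted p under 0.1 it was 1 of 30 tested, against 2.98%. The count of higher regions at an unadjusted p under 0.05 was 1 of 37 tested and 2 of 55 within 50 kb, against 14.8% of all tested regions. Over all 187 member regions it was 4, against 3.58% of all nuclear regions. The count of lower regions was 0 in each setting. Centring subtracts 1 constant, 0.19, so fold changes below it turn negative by construction. The median of tested member regions became -0.030 and that of start regions -0.031; on the median of tested protein-coding starts, a setting added after seeing the data, they became -0.0011 and -0.0024. Among named regions the centred values were -0.18 (SLC25A10), -0.10 (SLC25A11), -0.0020 (SLC25A13), -0.14 (SLC25A15), -0.17 (SLC25A16), -0.076 (SLC25A21), -0.049 (SLC25A22), -0.15 (SLC25A24), -0.12 (SLC25A32), -0.18 (SLC25A35), -0.093 (SLC25A37), -0.15 (SLC25A40), -0.030 (SLC25A41), -0.13 (SLC25A43), -0.17 (SLC25A45), -0.11 (SLC25A46), -0.11 (SLC25A51) and -0.092 (SLC25A53); 26 of 44 kept their sign, and no adjusted p was under 0.05. Without regions at another gene's start the tested median was 0.23, from 0.16. The median away from starts ran from 0.0088 to 0.35 over the settings, the highest with no extension. Medians were judged against the median standard error of 1 region.

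No paired analysis was possible because only means over all libraries were at hand; leaving out each replicate was therefore not run either.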

Other observations

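The nearest region with an adjusted p under 0.05 lay outside the 10 kb window. On the X chromosome, where SLC25A43 and SLC25A5 are neighbours, a region from 119502651 to 119503841, 31.3 kb beyond SLC25A5 and 48.2 kb beyond SLC25A43, had 64.3 mean reads. The authors' deposited table gives it 0.96 for the log2 fold change (standard error 0.27, adjusted p 0.0384, DESeq2). After centring on the median of tested regions its adjusted p was 0.603. Within the window, the SLC25A5 start had a log2 fold change of 0.30. This region was found by widening the window and was chosen after its value was seen. Its link to either gene was not tested.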
